A study of Mus musculus with 4 samples.

Results

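The genes of glucose use in muscle cells were examined in differentiating C2C12 cells with and without follistatin: the carriers that bring glucose in, the enzymes of glycolysis from hexokinase to pyruvate kinase, the enzymes and carriers that set what becomes of pyruvate and lactate, and the enzymes that store and release glycogen. The members are 36 named genes, of 27370 gene names on the array, and every probe that the array's annotation gives to one of these names was taken. They were chosen by function, and the rule that names them uses no measured value, but the choice was made with earlier results of these data known. They have 63 probe sequences, of which 54, covering 33 genes, were bright enough to be tested. The probes of Slc2a3 (a high-affinity glucose transporter), Pygl (the liver form of glycogen phosphorylase) and Phkg1 (the catalytic subunit of muscle phosphorylase kinase) were not, and these genes have no ratio here.

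Glycolysis splits glucose into pyruvate and yields ATP without oxygen. Fast muscle fibres depend on it, and they build much of the pathway from forms of each enzyme that differ from those of other tissues, such as Pygm, Pfkm, Pgam2 and Eno3. When myoblasts fuse into myotubes, these muscle forms come up beside or in place of the ubiquitous forms. Glycogen is the local glucose store of muscle, made by glycogen synthase and broken down by glycogen phosphorylase, which phosphorylase kinase switches on.

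C2C12 is an established line of mouse myoblasts. In both groups the cells were grown to 80% confluence in medium with fetal serum and then differentiated for 6 days in low horse serum, which 1 label field puts at 2% and another at 10%. The follistatin group received 200 ng/ml of recombinant human follistatin 288, a form of a secreted protein that binds activins and myostatin, every 24 h, and the control group was left untreated. No transgene or allele distinguishes the groups, and the labels call the 4 follistatin samples and their controls biological replicates of 1 cell line. Nothing says whether they were separate cultures, so p-values measure only the spread between these arrays, which may be partly technical.

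Each of the 4 replicates was 1 two-colour hybridisation to an Agilent whole mouse genome array with 60-base probes, with the follistatin sample in Cy3 and the untreated sample in Cy5. The labels use the word dye swap but give this orientation for all 4 arrays, so an effect of the dyes and an effect of follistatin cannot be told apart. Values are log2 ratios of the follistatin signal over the untreated signal on the same array, after the scanner software's background subtraction and dye normalization. A ratio of 1 is a doubling and a ratio of -1 a halving. The number of arrays limits the precision.

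The arrays did not resemble each other equally. Across the 33 genes, with 1 probe each, replicates 2 and 3 gave r = 0.82 and the other pairs of arrays 0.084 to 0.33. Over all tested probes these values were 0.82 and 0.038 to 0.32. Genes are not independent replicates, and replicates 1, 2 and 3 lay on 1 slide and replicate 4 on another. Replicate 1 was the array farthest from the median in 15 of the 33 genes (45.5%) and replicate 4 in 12 (36.4%), beside 34.5% and 35.5% of all 14502 named genes with a value on every array. All 13 markers of C2C12 myotubes, among them Myog, Acta1 and Ckm, were detected on each array, in the follistatin and in the untreated channel. Their median ratio was 0.85 on replicate 1 and -0.38, -0.51 and -0.33 on replicates 2 to 4. The median of their mean ratios was -0.17, with 8 of the 13 below 0 and 5 above. Tnnc2 (-0.89) and Myh1 (-0.57) were lower on all 4 arrays and at an unadjusted p under 0.05. Myog (-0.34) was lower on all 4 arrays but not at that p. The summed signal of the 13 ran from 1039000 to 1643600 with follistatin and from 1691100 to 2033200 without. Of markers of dividing or undifferentiated cells, 7 of 7 were measured, with summed signals of 10595 to 12785 with follistatin and 10061 to 13235 without. Their median ratio was 0.40, with 5 of 7 above 0, and on replicates 1 to 4 it was 0.23, 0.59, 0.33 and 0.22. Top2a (0.87), Mki67 (0.42) and Ccnd1 (0.45) were higher on all 4 arrays and at an unadjusted p under 0.05, and Id1 (-0.77) was lower at that p. Of fibroblast markers 3 of 5 were measured, with summed signals of 178410 to 211760 and of 134960 to 149100, while the defining genes Thy1 and Tcf21 were above background on 0 arrays. The part of these differences in the results that follow was not tested.

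No member passed the test across all probes. By limma's moderated test with Benjamini-Hochberg adjustment, 0 of the 54 member probes had an adjusted p under 0.05, as did 0.00740% of all 27016 tested probes (2 probes, both lower with follistatin and neither a member). The smallest adjusted p among the members was 0.107, on 1 of 3 probes of Phka1. Without adjustment, 8 member probes were higher at p under 0.05 (9.93% of all probes were) and 2 were lower (10.8% of all probes were). Likewise 8 were higher on all 4 arrays, as were 13.7% of all probes, and 5 were lower on all 4, as were 14.5%. With the brightest probe standing for each gene, 2 of 33 genes were higher at an unadjusted p under 0.05 (9.21% of all 14528 named genes were) and 1 was lower (6.81% were). By the same measure 5 genes were higher on all 4 arrays (14.3% of all genes) and 3 were lower on all 4 (12.7%). The median ratio of the 33 genes was 0.024, beside 0.022 for all named genes, with 18 genes above 0 and 15 below. On single arrays it was -0.16, 0.04, -0.16 and 0.07 for replicates 1 to 4. The values of single enzymes follow, by role.

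**Figure D1:**
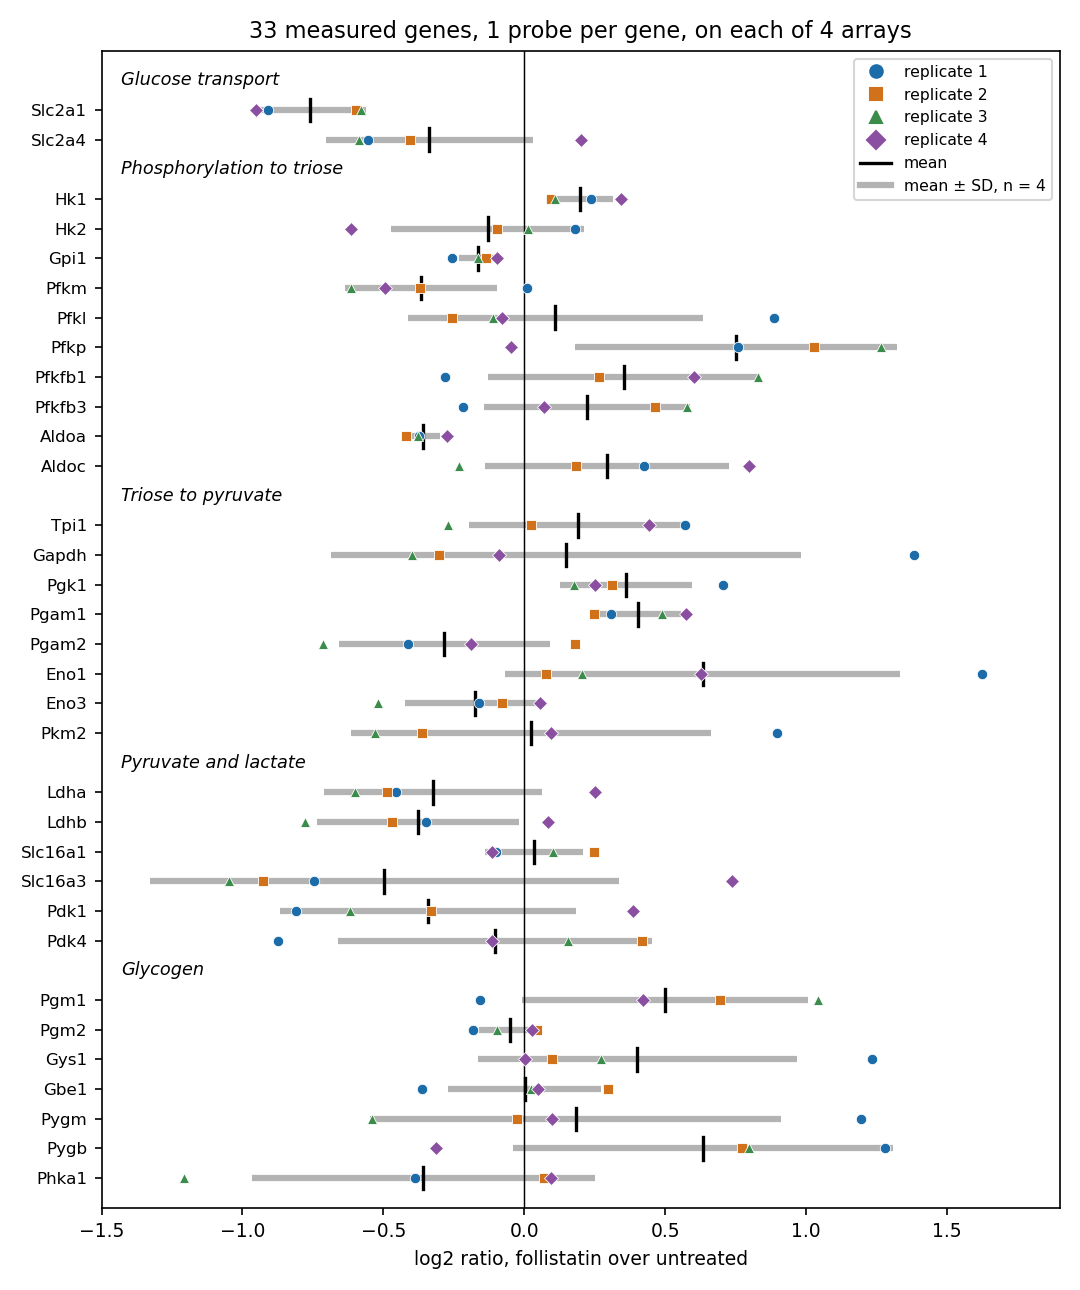
Log2 ratio of follistatin over untreated (horizontal axis) for the 33 measured genes, grouped by role, with 1 symbol per array, a black tick for the mean and a grey bar for the mean ± SD (n = 4 arrays). Slc2a1, Aldoa and Gpi1 lie below 0 on every array and Hk1, Pgk1, Pgam1, Eno1 and Gys1 above 0 on every array, while replicate 1 (circles) lies far to the right for Gapdh, Eno1, Gys1 and Pygm.

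The glucose transporters were both on the lower side. Slc2a1 encodes GLUT1, the carrier that gives most cells their basal glucose uptake. Its signal was 36106, 32007, 31171 and 25758 with follistatin on replicates 1 to 4, against 67794, 48446, 46590 and 49830 in the untreated channel of the same arrays. Every follistatin value lay below every untreated value. The channels also separated, in either direction, for Aldoa, Eno1, Hk1, Pgam1 and Pgk1, and the share of all genes that do so was not computed. The log2 ratios were -0.91, -0.60, -0.58 and -0.95, with a mean of -0.76 ± 0.20 (SD, n = 4), or 1.69-fold lower. Slc2a1 was the 1 gene of the 33 that was lower at an unadjusted p under 0.05, and it had the smallest adjusted p of the 33 (limma, adjusted p = 0.112). Its mean stayed between -0.82 and -0.65 under every alternative processing run. Its adjusted p ran from 0.0207 with array weights, where it passed, to 0.423 without replicate 3. Its probe lies at chr4:118809864-118809923 in mm9, on the plus strand. In RNA of a whole culture, fewer cells of a type and less of a transcript per cell cannot be told apart.

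Slc2a4 encodes GLUT4, the carrier that insulin and contraction bring to the surface of muscle cells. Its ratios were -0.55, -0.41 and -0.59 on replicates 1 to 3 and 0.20 on replicate 4, with a mean of -0.34 ± 0.37 (SD, n = 4). The signals were 1437 to 1848 with follistatin and 1609 to 2620 without, and they overlapped. All 3 probes of Slc2a3 were above background on 0 follistatin arrays and on at most 2 untreated arrays.

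**Figure D2:**
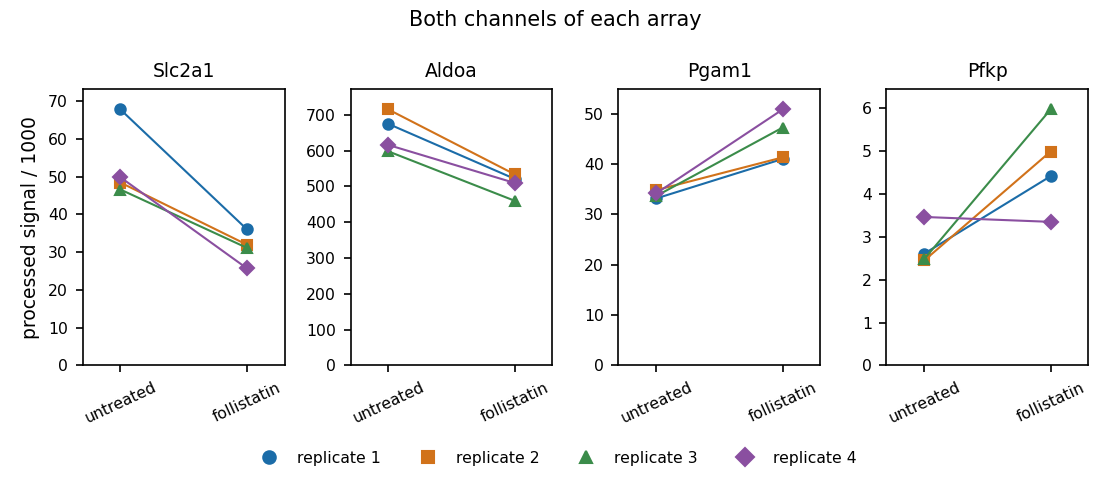
Processed signal divided by 1000 (vertical axes from 0) of the untreated and the follistatin channel, joined for each of the 4 arrays, for Slc2a1, Aldoa, Pgam1 and the brightest Pfkp probe. The 2 channels do not overlap for Slc2a1, Aldoa and Pgam1 (nor for Eno1, Hk1 and Pgk1, not shown), while replicate 4 is level for Pfkp.

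The steps from glucose to triose phosphate held genes on both sides of 0, with 6 of 10 genes above it and a median ratio of 0.15. Hexokinases trap glucose in the cell by phosphorylation. The ubiquitous Hk1 was slightly higher on all arrays by its brightest probe, at 0.24, 0.09, 0.11 and 0.34, and the insulin-responsive muscle form Hk2 was at 0.18, -0.10, 0.01 and -0.61. Gpi1, which turns glucose 6-phosphate into fructose 6-phosphate, was lower on all 4 arrays by a small amount, -0.16 ± 0.07 (SD, n = 4). Its second probe averaged -0.27 and was above 0 on replicate 1.

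Phosphofructokinase is the main control point of glycolysis and has a muscle, a liver and a platelet form. The muscle form Pfkm was at 0.01 on replicate 1 and at -0.37, -0.61 and -0.49 on the others, with a mean of -0.37 ± 0.27 (SD, n = 4). The liver form Pfkl was high on replicate 1, at 0.89, and below 0 on replicates 2 to 4, at -0.26, -0.11 and -0.08. The platelet form Pfkp had the highest mean ratio of the 33 genes by its brightest probe, 0.75 ± 0.57 (SD, n = 4), with 0.76, 1.03 and 1.27 on replicates 1 to 3 and -0.05 on replicate 4 (limma, adjusted p = 0.175). It passed the unadjusted threshold with all arrays, and by limma its unadjusted p was 0.062, 0.080 and 0.088 without replicate 1, 2 or 3, and 0.0783 with replicates 2 and 3 averaged into 1. Without replicate 4 its mean was 1.02, with an unadjusted p of 0.0029. Both of its other probes averaged below 0, at -0.38 and -0.41, so the direction for Pfkp depends on the probe. Of the enzymes that make and remove fructose 2,6-bisphosphate, the activator of phosphofructokinase, Pfkfb1 was at 0.35 ± 0.48 and Pfkfb3 at 0.22 ± 0.37 (SD, n = 4), each below 0 on replicate 1 and above it on the other arrays.

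Aldolase splits fructose 1,6-bisphosphate, and Aldoa is its muscle form. Its signals were 521078, 533760, 459868 and 509614 with follistatin and 674495, 714774, 597704 and 615624 without, so that the channels did not overlap. The ratio varied little, at -0.37, -0.42, -0.38 and -0.27, with a mean of -0.36 ± 0.06 (SD, n = 4), or 1.28-fold lower. This missed even the unadjusted threshold by limma (adjusted p = 0.261), which moderates a small SD towards that of all probes. With normexp and loess the mean was -0.63, and the unadjusted threshold was passed there, with array weights, with separate channels and no block, and by the unpaired test of the authors' methods. The adjusted p ran from 0.0601 to 0.689 over the alternatives. A second Aldoa probe was at -0.12 ± 0.11 (SD, n = 4) and above 0 on replicate 4. The brain form Aldoc had signals of 220 to 308 with follistatin and 175 to 258 without, which overlapped, and averaged 0.29 ± 0.43 (SD, n = 4).

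From triose phosphate to pyruvate, 6 of 8 genes had a mean above 0 and 3 of them were above 0 on all arrays. Pgam1, the ubiquitous phosphoglycerate mutase, had signals of 41021, 41328, 47246 and 50849 with follistatin and of 33178, 34835, 33669 and 34200 without. The channels did not overlap, and the ratios of 0.31, 0.25, 0.49 and 0.57 gave a mean of 0.40 ± 0.15 (SD, n = 4), or 1.32-fold higher (limma, adjusted p = 0.238). Pgam1 passed the unadjusted threshold with all arrays, and by limma its unadjusted p was 0.061 to 0.164 with any 1 array left out and 0.121 with replicates 2 and 3 averaged. The probe lies at chr19:41992898-41992957 in mm9, on the plus strand. Pgam2, the muscle form of the same enzyme, was at -0.41, 0.18, -0.71 and -0.19, with a mean of -0.28 ± 0.38 (SD, n = 4).

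Pgk1, the first ATP-yielding enzyme of the pathway, was higher on all 4 arrays, at 0.70, 0.31, 0.18 and 0.25, a mean of 0.36 ± 0.24 (SD, n = 4). A second Pgk1 probe that overlaps the first gave 0.35 over 3 arrays, its replicate 3 value having been left out as an outlier spot. The file places both probes on chromosome 3, while RefSeq places Pgk1 on the X chromosome, so signal from a near-identical copy cannot be told apart from that of the gene. Eno1, the ubiquitous enolase, was also higher on all arrays, but unevenly, at 1.62, 0.08, 0.20 and 0.63 (mean 0.63 ± 0.70, SD, n = 4). Eno1 and Gapdh also have near-identical copies in the genome, and their values are uncertain to that extent. The muscle enolase Eno3 was at -0.16, -0.08, -0.52 and 0.06, with a mean of -0.18 ± 0.25 (SD, n = 4).

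Gapdh, often used as a reference transcript, was at 1.38 on replicate 1 but at -0.30, -0.40 and -0.09 elsewhere. Without replicate 1 its mean turned from 0.15 to -0.26. The sign of Pkm2 (pyruvate kinase of muscle, now named Pkm) turned likewise, from 0.02 to -0.27, with 0.90 on replicate 1, -0.36 and -0.53 on replicates 2 and 3, and 0.09 on replicate 4. Its other probes averaged -0.23 and 0.12. Tpi1, which interconverts the triose phosphates, was at 0.57, 0.02, -0.27 and 0.44. The myotube markers had their high median on the same array as these genes, as given above, and this was not tested further.

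The genes of pyruvate and lactate had 5 of 6 means below 0 and a median of -0.33, but 0 of them were below 0 on every array. For Ldha, Ldhb, Slc16a3 and Pdk1, replicate 4 was the array above 0. Ldha, the lactate dehydrogenase subunit of fast muscle, was at -0.45, -0.49, -0.60 and 0.25 by its brightest probe, a mean of -0.32 ± 0.39 (SD, n = 4). Its second probe had a mean of the opposite sign, 0.13 ± 0.33 (SD, n = 4), with 0.58, 0.12, -0.20 and -0.0038, and the mean over both probes was -0.099. Ldhb, the heart subunit, was at -0.35, -0.47, -0.78 and 0.09. Slc16a3 encodes MCT4, the carrier that exports lactate from glycolytic cells, and was at -0.75, -0.93 and -1.05 on replicates 1 to 3 and at 0.74 on replicate 4. Without replicate 4 its mean moved from -0.50 to -0.91. Slc16a1 encodes MCT1, which carries lactate in either direction, and averaged 0.03 ± 0.17 (SD, n = 4), with its other probes at -0.11 and 0.09.

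Pyruvate dehydrogenase kinases hold pyruvate back from the mitochondrial oxidation. Pdk1 was at -0.81, -0.33, -0.62 and 0.39 by its brightest probe, while its other probe was higher on all 4 arrays, at 0.16, 0.49, 0.74 and 0.90 (mean 0.57, limma adjusted p = 0.180). Pdk4, the form induced by fasting, was at -0.87, 0.42, 0.16 and -0.12.

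Among the glycogen genes, 5 of 7 had means above 0. Gys1, the muscle glycogen synthase, was above 0 on all arrays, but its mean of 0.40 ± 0.57 (SD, n = 4) came from values of 1.23, 0.10, 0.27 and 0.0026, of which replicate 1 was the high one. The branching enzyme Gbe1 averaged 0.0012 ± 0.27 (SD, n = 4). Of the glycogen phosphorylases, the muscle form Pygm was at 1.20, -0.03, -0.54 and 0.10, and the brain form Pygb at 1.28, 0.77, 0.80 and -0.31, a mean of 0.63 ± 0.67 (SD, n = 4). A second Pygb probe was at 2.54, 1.40, 1.85 and -0.44, a mean of 1.34 (limma, adjusted p = 0.182). The phosphoglucomutases join glycogen to glycolysis. The gene that the array calls Pgm1, now Pgm2, averaged 0.50 ± 0.51, and the one it calls Pgm2, now Pgm1, averaged -0.05 ± 0.11 (SD, n = 4).

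The muscle forms were then set beside the other forms of the same enzyme or carrier, as the difference of their log2 ratios on each array. Of 15 pairs, 12 could be compared, since Pygl, Phkg1 and Gys2 had no tested probe. In 6 pairs the difference was below 0 on all 4 arrays, so the muscle form had the lower ratio each time. These were Hk2 against Hk1, Pfkm against Pfkl, Pfkm against Pfkp, Aldoa against Aldoc, Pgam2 against Pgam1 and Eno3 against Eno1, which cover 5 steps of glycolysis, with Pfkm in 2 of the pairs. The difference was above 0 on all 4 arrays in 0 pairs. Of all named genes taken singly, 12.7% were lower on all 4 arrays, but this is not the share to set beside differences of 2 genes. How often 2 genes taken from the whole array differ with 1 sign on all 4 was not computed. Whether 6 of 12 pairs is more than usual is therefore not known. Replicates 2 and 3 were alike (r = 0.82 over all tested probes), so the 4 signs are not 4 independent ones.

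The pair of phosphoglycerate mutases differed by -0.72, -0.07, -1.20 and -0.76, with a mean of -0.69 ± 0.47 (SD, n = 4). The enolases differed by -1.78, -0.16, -0.72 and -0.57 (mean -0.81 ± 0.69, SD, n = 4), the widest value being on replicate 1, where Eno1 was high. For Pfkm against Pfkl the mean was -0.48 ± 0.31, and for Aldoa against Aldoc it was -0.65 ± 0.39 (SD, n = 4). Hk2 against Hk1 had a mean of -0.33 ± 0.42, of which replicate 4 gave -0.96 and replicates 1 to 3 gave -0.06, -0.19 and -0.10. Pfkm against Pfkp had the widest mean, -1.12 ± 0.64 (SD, n = 4), which rests on the brightest Pfkp probe.

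With 4 arrays the exact sign-flip permutation test, two-sided, cannot give a p below 0.125. Each of these 6 pairs had that p, and 0.25 after Benjamini-Hochberg adjustment over the 12 pairs, so this test cannot put any pair past 0.05. The remaining pairs varied in sign between arrays. The mean difference was 0.42 ± 0.51 for Slc2a4 against Slc2a1 and 0.05 ± 0.14 for Ldha against Ldhb (SD, n = 4). It was -0.45 ± 0.77 for Pygm against Pygb, -0.50 ± 0.74 for Phka1 against Phka2, -0.53 ± 0.95 for Slc16a3 against Slc16a1 and 0.24 ± 0.63 for Pdk4 against Pdk1 (SD, n = 4). With the mean over all tested probes of a gene, 4 pairs were below 0 on every array, and with contiguous RefSeq probes alone 3 were, of 8 that could then be compared. The difference of Pfkm and Pfkp was then -0.35 and 0.04.

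**Figure D3:**
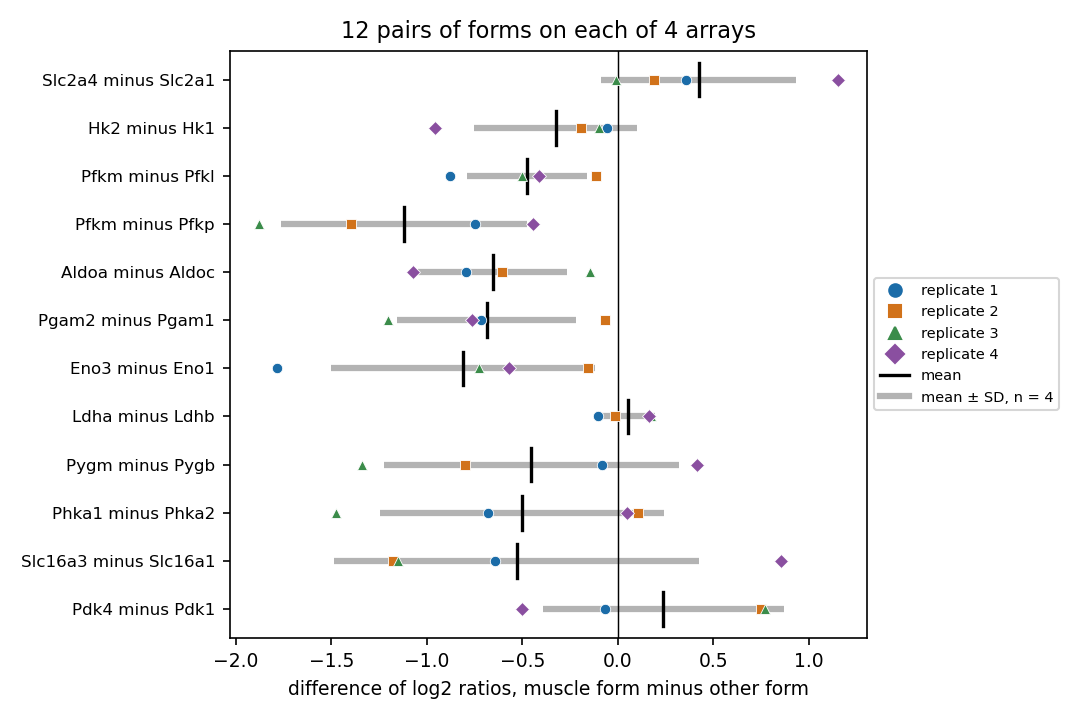
Difference of log2 ratios, muscle form minus other form (horizontal axis), for 12 pairs, with 1 symbol per array, a black tick for the mean and a grey bar for the mean ± SD (n = 4 arrays). The 6 pairs from Hk2 minus Hk1 to Eno3 minus Eno1 lie below 0 on every array, with values from -1.88 to -0.06, and the other pairs straddle 0.

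The phosphoglycerate mutases have 1 muscle and 1 ubiquitous gene and are 1 of the 6 pairs with the same direction on every array. Their promoters are shown as an example, and those of the other such pairs are not shown. The Pgam2 and Pgam1 promoters are given here as the 250 bases before the RefSeq transcription start in GRCm38.p6, 5′ to 3′ on the gene's strand. Capitals mark each CANNTG, the E-box that MyoD-family factors bind, searched on both strands at once because the motif reads the same on either strand. They are at chr11:5803797-5804046 (minus strand) for Pgam2 and chr19:41911621-41911870 (plus strand) for Pgam1.

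Pgam2: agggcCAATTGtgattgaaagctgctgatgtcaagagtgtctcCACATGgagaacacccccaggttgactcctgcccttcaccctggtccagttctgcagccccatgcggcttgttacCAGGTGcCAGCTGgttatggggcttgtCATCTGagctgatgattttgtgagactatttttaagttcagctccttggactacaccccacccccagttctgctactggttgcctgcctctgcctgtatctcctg
Pgam1: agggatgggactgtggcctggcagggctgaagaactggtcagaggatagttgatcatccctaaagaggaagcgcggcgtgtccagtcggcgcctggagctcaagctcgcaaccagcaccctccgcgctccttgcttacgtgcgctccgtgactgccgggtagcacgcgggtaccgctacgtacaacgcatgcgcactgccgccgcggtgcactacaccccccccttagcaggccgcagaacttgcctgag

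The Pgam2 window holds 5 such matches and the Pgam1 window 0. At least 1 match is in 66.2% of all 32851 RefSeq windows of this length, and 5 or more are in 1.15%. The Pgam2 window also holds 1 match to the MEF2 consensus, 80 bases before the start, which 1.69% of all windows hold. Over the genes of the pairs, 10 of 11 muscle forms and 12 of 12 other forms had an entry, and CANNTG was in 13 of 16 windows of the muscle forms and in 7 of 17 of the others. The MEF2 consensus was in 1 of the 16, that of Pgam2, and in 0 of the 17, so the window shown is not typical of the muscle forms. These matches describe the letters in the windows and are not evidence of binding.

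Several genes were read by more than 1 probe, and the probes did not always give the same sign. Of the 14 members with 2 or more tested probes, 8 (57.1%) had probes with means of opposite sign and 4 (28.6%) had probes more than 1 log2 unit apart. Over all 6189 such genes on the array the shares were 49.8% and 17.3%. The median range between probes was 0.40 for the members and 0.44 for all genes. The members with the widest ranges were Phka1 (2.35), Hk1 (1.57), Pfkp (1.16) and Tpi1 (1.13), and those with the narrowest were Pgk1 (0.01), Gapdh (0.09) and Gpi1 (0.10).

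The probes of Phka1, the muscle regulatory subunit of phosphorylase kinase, and of Pfkp are shown because they had the widest range and the highest gene value. For each gene, the probe listed first was designed on the RefSeq transcript and covers an exon junction or other gap, since its 60 bases span 3317 bases of the genome for Phka1 and 2155 for Pfkp. The others shown match 1 unbroken stretch and were designed on cDNA clones. The remaining Pfkp probe, on the same RefSeq transcript but contiguous, is not shown, and its values are given below. All are on the minus strand in mm9 and are written 5′ to 3′ as the array file gives them, with no bases marked.

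Phka1, RefSeq transcript, chrX:99712813-99716129: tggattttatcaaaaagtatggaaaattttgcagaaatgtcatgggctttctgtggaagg
Phka1, clone AK078633, chrX:99738737-99738796: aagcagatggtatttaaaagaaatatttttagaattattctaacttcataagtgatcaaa
Phka1, clone AK035307, chrX:99748131-99748190: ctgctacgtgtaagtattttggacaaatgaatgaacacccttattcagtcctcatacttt
Pfkp, RefSeq transcript, chr13:6581718-6583872: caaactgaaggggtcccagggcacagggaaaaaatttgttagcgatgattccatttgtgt
Pfkp, clone BC050264, chr13:6588296-6588355: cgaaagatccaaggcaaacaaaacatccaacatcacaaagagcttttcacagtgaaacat

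The Phka1 probe on the RefSeq transcript was at 1.43, 2.55 and 2.33 on replicates 1 to 3 and at -0.05 on replicate 4, a mean of 1.57 ± 1.18 (SD, n = 4; limma, adjusted p = 0.136). It was above background on 4 follistatin arrays and 3 untreated arrays. The AK078633 probe was lower on all 4 arrays, at -0.88, -0.83, -0.77 and -0.66, a mean of -0.78 ± 0.10 (SD, n = 4; limma, adjusted p = 0.107). The AK035307 probe, which is the brightest and stood for the gene, averaged -0.36 ± 0.61 (SD, n = 4). The clone probes lie 22607 and 32001 bases upstream of the first, and the AK078633 sequence has a stop codon in each of its 3 frames. For Pfkp the spanning RefSeq probe gave the 0.75 described above, and the BC050264 probe was at -0.53, -0.77 and -0.58 on replicates 1 to 3 and at 0.35 on replicate 4. The contiguous RefSeq probe of Pfkp, at -1.34, 0.00044, -0.0086 and -0.30, averaged -0.41 ± 0.63 (SD, n = 4), on the side of the clone probe and not of the spanning one. The spanning probe of each gene and the AK078633 or BC050264 probe had opposite signs on replicates 1 to 3.

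Hk1 had 5 tested probes, all on RefSeq transcripts. Its brightest averaged 0.20, and 3 others averaged 1.13, 1.13 and 1.44 (limma, adjusted p = 0.122 to 0.162), with values of 1.03 to 2.73 on replicates 1 to 3 and of -0.17 to 0.33 on replicate 4. The fifth averaged -0.13 and had the reverse pattern, at -0.15, -0.80 and -0.70 on replicates 1 to 3 and 1.15 on replicate 4. For Tpi1, a probe on clone AK053780 averaged -0.94 ± 1.40 (SD, n = 4) beside 0.19 for the RefSeq probe.

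The kind of probe went with the ratio across the whole array. These classes were drawn after the values of the members had been seen. Probes on cDNA clones had a median of -0.47 (3077 probes, 76.5% of them below 0), and this was -0.29, -0.37, -0.77 and -0.35 on replicates 1 to 4. Contiguous probes on RefSeq transcripts had a median of 0.06 (17177 probes, 43.3% below 0). Those that span more than 70 bases of the genome had one of 0.09 (3150 probes, 41.4% below 0). In 1615 genes with both of these kinds, the spanning probe minus the contiguous one had a median of 0.05. On replicates 1 to 4 this median was 0.22, 0.01, 0.04 and -0.06. Among the members, 5 of 5 clone probes had a mean below 0, as did 17 of 38 contiguous RefSeq probes and 1 of 8 spanning probes. Of the 8 member probes higher at an unadjusted p under 0.05, 3 were spanning probes, those of Phka1, Pfkp and Pygb, and 3 belonged to Hk1. What part the kind of probe has in these ratios was not tested.

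**Figure D4:**
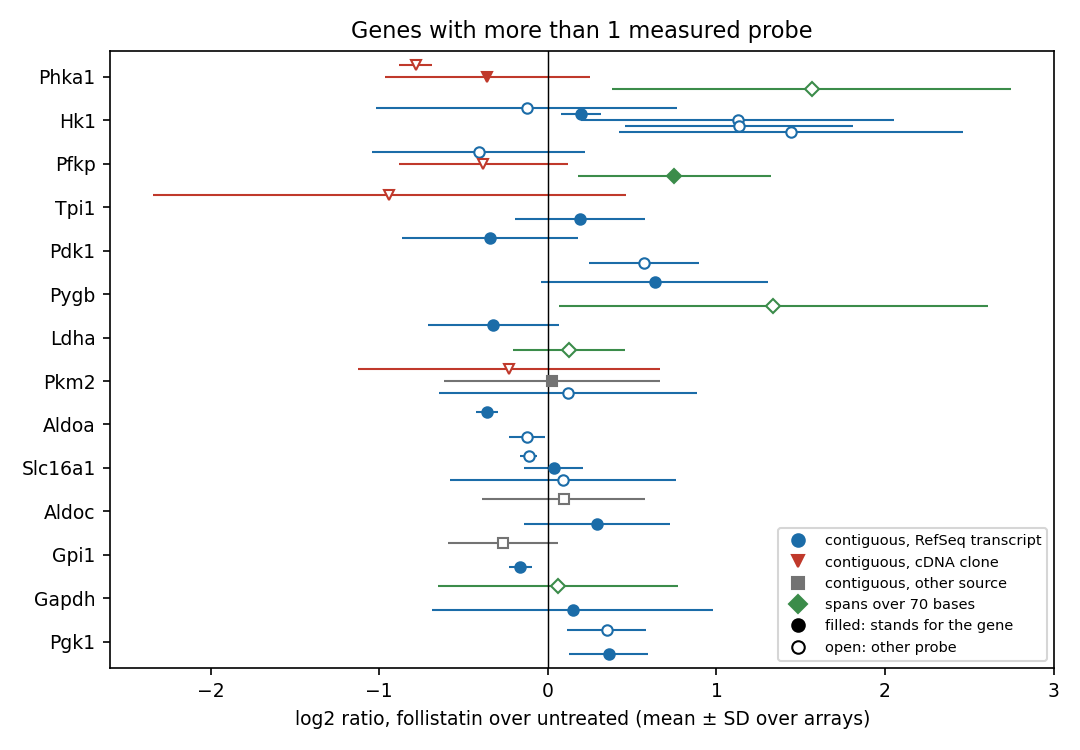
Mean log2 ratio ± SD over arrays (horizontal axis) of every tested probe of the 14 genes with more than 1, ordered by the range between probes. Symbols give the kind of probe, and filled symbols the brightest probe, which stands for the gene; for Phka1, Hk1, Pfkp, Tpi1 and Pdk1 at the top the probes lie on both sides of 0.

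The rest of the glucose pathways, listed by textbook function, had 0 genes past an adjusted p of 0.05 in any list. The counts picked at an unadjusted p under 0.05 stand beside shares over all named genes of 9.21% higher and 6.81% lower. Of the other transporters and glycolytic enzymes, 19 of 25 were measured, and the unadjusted test picked 2, both higher. These were the neuronal enolase Eno2, at 0.67 ± 0.45, and the inositol transporter Slc2a13, at 0.54 ± 0.34 (SD, n = 4). Of the other glycogen genes, 18 of 20 were measured and 2 were picked, both lower: the primer protein Gyg at -0.52 ± 0.32 and Pgm5 at -0.64 ± 0.35 (SD, n = 4).

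Of the other genes of pyruvate and lactate, 15 of 17 were measured. The pyruvate dehydrogenase subunits Pdhb (0.58 ± 0.16) and Dld (0.47 ± 0.26) were higher and the dehydrogenase's phosphatase Pdp1 (-0.46 ± 0.28) was lower, each on all 4 arrays (SD, n = 4). In the pentose phosphate and hexosamine list, 12 of 12 were measured and 1 was picked, G6pdx, the enzyme of entry into the pentose phosphate pathway, at 0.48 ± 0.06 (SD, n = 4). Of 6 gluconeogenic genes 3 were measured and 0 picked.

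Among 13 measured regulators of 15, Hif1a, the oxygen-regulated subunit of hypoxia-inducible factor, was higher at 0.46 ± 0.22, and its partner Arnt was lower at -0.77 ± 0.62, both with 1 sign on all arrays, while Prkaa2, a catalytic subunit of AMP-activated kinase, was at -0.83 ± 0.72 (SD, n = 4) with 1 array above 0. Of 14 hypoxia-responsive genes outside the members, 14 were measured and 1 was picked, Mxi1 at 0.51 ± 0.42 (SD, n = 4). The median over these 14 was 0.11, beside the 0.022 of all genes. The adjusted p of the genes named here by the unadjusted test lay between 0.148 and 0.239 (limma).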

How the data were processed

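Each of the 4 samples was 1 two-colour array. The authors quantified spot intensity in Agilent Feature Extraction (10.7.3.1 per the submitters' processing notes, and for replicate 4 10.10.1.1 per the file headers). The deposited processed intensity of each channel was background-subtracted and dye-normalized by that software. The deposited log10 ratio, Cy5 over Cy3, served to check direction. The authors' deposited log2 table equals log2 of processed Cy3 over Cy5 (medians -0.16, 0.17, 0.13 and 0.11), so its scale and direction are known.

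Here control spots and spots marked as outliers or non-uniform were left out, 0 spots were saturated, and spots of a probe were averaged. Of 41174 probe sequences, 27016 were tested, being well above background in 1 channel on at least 3 arrays; 61.1% to 69.4% of spots were. Ratios were tested against 0 with limma 3.58.1 in R 4.3.3, with Benjamini-Hochberg adjustment over all tested probes and a threshold of 0.05, after a check on simulated data. The tested probe of highest mean intensity stood for a gene. Values by array are plotted for every measured member. The text gives them for members with an unadjusted p under 0.05, for Gapdh, and for most members of 1 sign on all arrays or in a pair. Names are those of the array file, updated for list genes through a RefSeq table of GRCm38.p6; probe positions are the file's, in mm9. The members and lists were chosen with earlier results of these data known. Alternatives covered background correction, centring, filters, probe choice, weights and arrays left out.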

Additional observations from a re-analysis of the deposited data

Results flagged for a closer look

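Of 45 values examined over the 4 arrays (33 genes and 12 pairs), 3 had 1 array far from the other 3; chance alone marks about 1 in 20. Pfkl was at 0.89 on replicate 1, with the others between -0.26 and -0.08. Slc16a3 was at 0.74 on replicate 4, with the others between -1.05 and -0.75. The difference of Hk2 and Hk1 was -0.96 on replicate 4, with the others between -0.19 and -0.06.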

How the results depend on the processing

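Over all probes, 2 passed the adjusted threshold. With normexp and loess, with detection in both channels on all arrays, with replicates 2 and 3 averaged, or without any 1 replicate (0 to 0), 0 passed. With array weights (0.48, 2.5, 1.9 and 0.43 for replicates 1 to 4) 7939 of all 27016 tested probes passed. Of the 33 genes, those that passed there were Ldhb, Pfkp, Pgm1, Pygb, Slc16a3 and Slc2a1. With separate channels and no replicate block 6 probes passed. With the replicate block, which pairs the channels of an array, 2 passed again. Unadjusted, 2684 probes were higher and 2922 lower. These were 1266 and 1807 with replicates 2 and 3 averaged, 6324 and 6024 with array weights, and 1049 to 3847 and 1525 to 3809 with 1 replicate left out.

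Of the member genes, 2 were higher and 1 lower at an unadjusted p under 0.05. The higher count was 1 with median centring, with no filter on dim probes, with replicates 2 and 3 averaged, with the slide as a random block and with contiguous RefSeq probes alone, and 0 to 2 with 1 replicate left out. It was 6 with array weights, 4 with separate channels and no block, and 5 by the unpaired test of the authors' methods. The lower count was 4 with normexp and loess, 8 with array weights, 3 with no block and by the unpaired test, and 1 to 6 with 1 replicate left out. These counts are of 33 genes, or of 29 with contiguous RefSeq probes alone. Of all 27016 tested probes, 6324 were higher and 6024 lower with array weights, and 3023 and 2945 with no block. By the unpaired test 2703 were higher and 2474 lower, and with normexp and loess 2315 and 2844. Pairs below 0 on all arrays numbered 6, with 6 to 8 when 1 replicate was left out (8 without replicate 4). Leaving out an array cannot lower this count, since a pair below 0 on all arrays is below 0 on those that remain. The count was 4 with the mean over probes. It was 3 with contiguous RefSeq probes alone, an alternative added after seeing the data, when fewer pairs had a probe.

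Single genes changed sign as follows; the cause was not tested. With array weights these were Gapdh (-0.17), Pdk4 (0.17), Pfkl (-0.088), Pkm2 (-0.27) and Pygm (-0.089), with median centring Gbe1 (-0.0046), and with replicates 2 and 3 averaged Gbe1 (-0.051) and Slc16a1 (-0.014). With the mean over probes these were Pdk1 (0.11), Pfkp (-0.014), Phka1 (0.14), Pkm2 (-0.029) and Tpi1 (-0.37), and with contiguous RefSeq probes Pfkp (-0.41). With 1 replicate left out, Gapdh ran from -0.26 to 0.33, Gbe1 from -0.097 to 0.12, Hk2 from -0.23 to 0.031, Pdk4 from -0.28 to 0.15, Pfkl from -0.15 to 0.23, Pkm2 from -0.27 to 0.21, Pygm from -0.16 to 0.42 and Slc16a1 from -0.038 to 0.083. The ratios of Slc2a1, Aldoa, Pgam1, Pgk1, Pfkm, Hk1 and Pygb kept their sign under each alternative run. So did those of every other measured member not listed above, even Pgm2 as the array names it, with a mean of -0.05. With 4 arrays of 1 dye orientation, differences of about the size of the array-to-array SD could not be called. Differences well beyond their SD were not called either, such as Slc2a1 at -0.76 ± 0.20 and Aldoa at -0.36 ± 0.06 (SD, n = 4).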
